A study of Drosophila melanogaster and Drosophila virilis with 60 samples.

Results

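The 100 *D. melanogaster* genes described here were high in both feeding stages, larvae and adults, and low throughout pupal development. They were chosen from the deposited values themselves. For every gene the mean value of each of 10 stages was taken, and the score was the lower of the larval and adult means minus the highest of the 7 pupal means. The embryo did not enter the score. The 100 genes with the highest score were taken out of 14127. Because larval, adult and pupal values chose these genes, their difference between feeding stages and pupae is given below as a description and was not tested.

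The study followed the transcriptome of whole animals through development in wild-type *D. melanogaster* (Oregon-R), with *D. virilis* (Strain 9) as a distant relative that is not analysed here. No mutation, transgene or treatment was involved, and all stages were reared on the same standard medium at a constant temperature. Embryos were aged 10 h, mid pupae 24 h, late pupae 48 h and adult males 5 d, and P1 to P5 are the first visible stages after pupariation. Embryos, each pupal stage and adults had 3 biological replicates, whereas the larvae had 1 library each of the 1st, 2nd and 3rd instar, which stand in as 3 replicates. For the 2nd instar the methods name suboptimal quality and keep the 1st and 3rd for later analyses. Elsewhere they average all larval samples, and all 3 larval libraries are kept here. Each library was made from poly(A) RNA of a pool of animals. All adults were male, and the sex ratio of the younger stages was not checked by the study, so that adults and pupae differ in sex composition as well as in stage.

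Larvae feed almost continuously and adults feed again after eclosion, while the animal inside the puparium takes no food. In flies the larval midgut, the main site of digestion, is discarded during metamorphosis and replaced by an epithelium built from adult precursor cells. Digestive enzymes reach the gut lumen as secreted amylases, maltases and serine proteases, and their products are taken up by enterocytes. Further on, fat body and Malpighian tubules, the insect kidney, store, convert and excrete what the gut absorbs.

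The files hold log2 values from the variance stabilizing transformation, on which a count of 0 has the value 4.09. They were inverted to counts, which are given as CPM, the count divided by the library total and scaled to 1e6. The 30 libraries held 7.35 M to 13.4 M counts (median 9.13 M), so that 1 count was worth 0.0744 to 0.136 CPM. These totals exceed the read numbers per sample that the paper reports. The reason was not resolved, and all limits in CPM rest on the recovered counts. A count of 0 allows a level of up to 3 counts, or 0.223 to 0.408 CPM per library, and such limits cover counting error only. In whole animals, fewer cells of a type and less RNA per cell cannot be told apart.

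The score ran from 2.98 to 7.28 on the deposited log2 scale, with a median of 3.97. The last genes inside the threshold were CG3734 (3.02) and Est-Q, an esterase (2.98), and the first outside were Acsf2 (2.98) and LysE, a lysozyme (2.97), so that the boundary cuts through a continuum. The members together took 2.23% to 6.198% of all counts in the larval libraries, 2.77% to 3.69% in the adult libraries and 0.0132% to 0.0614% in the 21 pupal libraries. In 99 of the 100 members, each of the 6 feeding libraries lay above each of the 21 pupal libraries, as the choice of genes favours (3.22% of all varying genes). The exception was Bace, an aspartyl protease, whose 1st instar library (16.8 CPM) lay within its P1 libraries (11.8, 16.0 and 20.996 CPM).

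Low in pupae did not mean a count of 0 in every pupal library. No member was at 0 counts in all 21 pupal libraries, although 64 were at 0 in at least 1 of them and 17 in at least 11. The median pupal level was under 1 CPM for 72 members, and 30 members were under 1 CPM in every pupal library. By contrast, 22 members reached 10 CPM in some pupal library. The rule held pupal values low and shares over all genes were not computed, so that these counts describe the members only. For members with a few pupal counts, whether those reads reflect expression in pupae was not tested. The name feeding-stage genes low in pupae therefore describes the set better than genes switched off in pupae.

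**Figure D1:**
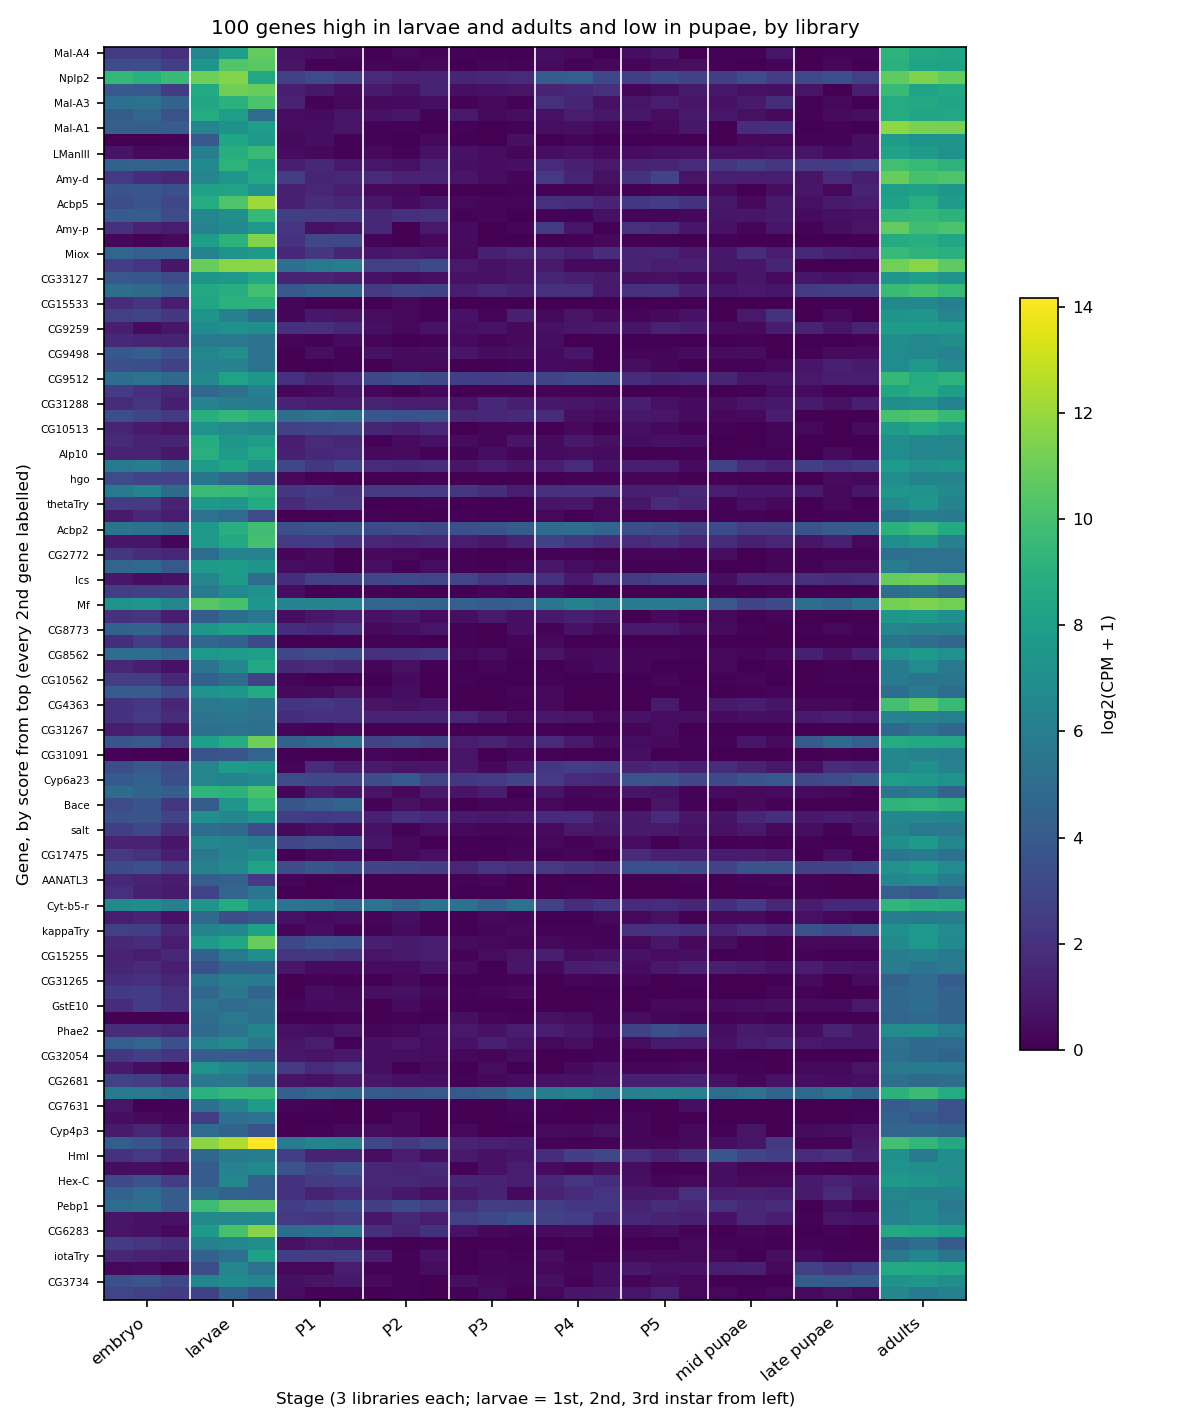
Levels of the 100 genes in the 30 libraries as log2(CPM + 1), by colour. Each row is a gene, ordered by score with every 2nd one labelled, and each column is a library, with the 3 larval columns being the 1st, 2nd and 3rd instar. Larvae and adults are bright in nearly every row and the 21 pupal columns are dark, with a faintly brighter P1.

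Of the 100 members, 50 carry a gene name and 50 only a CG number, for which no role is given here. Grouped by the known role of the product, the named members comprised 9 enzymes that cut sugars from starch, disaccharides or glycans, 13 peptidases, 6 enzymes that break down tyrosine, urate, inositol or sugars, 5 detoxification enzymes, 3 acyl-CoA binding proteins with 1 esterase, 2 alkaline phosphatases and 11 others. Markers of the midgut did not move as 1 group. The 10 midgut markers summed to 334 to 1382 CPM in pupae, against 681 to 2494 CPM in larvae and 953 to 1186 CPM in adults, but Vha16-1, a proton pump subunit used in many tissues, made up most of the pupal sum (198 to 1015 CPM). mex1, a gut gene, had a pupal median of 1.88 CPM (0.281 to 20.2), against 17.6 to 114 CPM in larvae and 25.4 to 44.9 CPM in adults. Vha100-4, a subunit of a proton pump, was the marker of this list whose pupal libraries all lay below all feeding libraries, at 0 to 0.693 CPM in pupae, 114 to 152 CPM in larvae and 19.6 to 22.4 CPM in adults. The gut transcription factor GATAe was at 3.72 to 20.4 CPM in pupae (median 7.33), 9.08 to 32.5 CPM in larvae and 13.0 to 20.1 CPM in adults. Myo61F and lab had pupal medians of 78.2 and 0.824 CPM, below their means in larvae (202.9 and 3.57 CPM) and adults (152.6 and 2.76 CPM). Myo31DF overlapped between pupae (35.8 to 101 CPM), larvae (22.3 to 80.5 CPM) and adults (41.5 to 68.7 CPM). By contrast, esg, a gene of gut precursor cells and other tissues, was higher in every pupal library (17.2 to 61.6 CPM) than in larvae (1.71 to 9.57 CPM) or adults (3.09 to 3.53 CPM), and nub and pros were not higher in feeding stages either. The 5 Malpighian tubule markers, of which Uro is itself a member, summed to 31.2 to 242 CPM in pupae and to 308 to 585 CPM in larvae. In adults they summed to 339.7 to 439.9 CPM. Uro, chosen by the rule, gave 13.27 to 337 CPM of the larval sums. Uro and NaPi-T were lower in every pupal library than in every feeding library, and Irk2 overlapped. The markers tsh and ct went the other way, with pupal medians of 74.97 and 17.52 CPM. Their means were lower in larvae (19.55 and 7.352 CPM) and in adults (9.37 and 12.46 CPM). The 9 fat body markers summed to 8477 to 106800 CPM in pupae (median 52320). Their sums were 1731 to 49150 CPM in larvae (median 2637) and 1717 to 2242 CPM in adults (median 2021). FASN1 was the only fat body marker with all pupal libraries below all feeding libraries. The part of these tissues in the results was not tested.

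Of the 7 highest scores, 5 belonged to maltases and alpha-mannosidases. Mal-A4, a maltase that splits disaccharides into glucose, had the highest score (7.28). It stood at 89.96, 236 and 1762 CPM in the 1st, 2nd and 3rd instar and at 592, 376 and 322 CPM in adults, against a pupal median of 0.118 CPM (0 to 0.798). Its neighbour Mal-A3 (score 6.43) was at 334, 523 and 1163 CPM in the instars and at 417, 379.6 and 306 CPM in adults, with a pupal median of 0.483 CPM (0 to 2.74). The adult libraries of Mal-A4 all lay within the range of its instars, and so did those of Mal-A3 except the third, which lay just below its 1st instar. Mal-A1 (score 6.28) differed from them in its balance. It was at 84.6, 155 and 240.5 CPM in the instars and at 3466, 2604 and 2479 CPM in adults, and every adult library lay above every larval one. Its pupal libraries ranged from 0 to 2.76 CPM with a median of 0.129 CPM, the highest being mid pupae.

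The alpha-mannosidases, enzymes of the lysosomal type that remove mannose from glycans, contributed LManIII, LManIV, LManV and LManVI. LManV (score 7.16) was at 172, 1283 and 1520 CPM in the instars, at 502, 302 and 293 CPM in adults and at a median of 0.127 CPM in pupae (0 to 0.680). LManVI (score 6.49) was at 399.6, 2169 and 1913 CPM in the instars and at 757, 294 and 392 CPM in adults, with pupal libraries between 0 and 2.97 CPM. In all 4 genes the 1st instar was the lowest larval library. LManIII (score 6.15) was at 67.0, 461 and 776 CPM in the instars, at 283, 215 and 152 CPM in adults and at 0.109 to 0.752 CPM in pupae. LManIV was at 0 counts in 16 of the 21 pupal libraries. LManI and LManII, also lysosomal alpha-mannosidases, were not among the 100.

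Starch is split by the amylases, of which the proximal and the distal copy, Amy-p and Amy-d, were both members. Amy-d was at 85.1, 169 and 372 CPM in the instars and at 1922, 1063 and 1247 CPM in adults, with a pupal median of 1.47 CPM (0.202 to 6.52). Amy-p was at 76.0, 109 and 190.2 CPM in the instars and at 1763, 924 and 1153 CPM in adults, with a pupal median of 0.706 CPM (0 to 4.72). These copies are nearly identical, and pseudomapping may divide reads between them, so that the split within the pair is uncertain. The same may hold among related trypsins, Jonah proteases, alpha-mannosidases and acyl-CoA binding proteins, whose sequences were not compared here.

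Peptidases formed the largest named group, with 6 trypsins (betaTry, iotaTry, kappaTry, lambdaTry, thetaTry and zetaTry), the Jonah proteases Jon25Bi and Jon99Ci, the serine protease Phae2, the neprilysin-type metallopeptidases Nep6 and Nepl15, Bace and the cathepsin CtsK2. Trypsins and Jonah proteases are serine proteases secreted into the midgut lumen. Jon25Bi reached 3422, 5774 and 18540.1 CPM in the 3 instars and 977, 669 and 369 CPM in adults. It took 29.9% of the counts of all members in the 3rd instar library, and without it the members still took 4.34% of all counts there. Its pupal libraries ranged from 0.0990 to 83.1 CPM, with a median of 1.06 CPM.

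betaTry was at 1887, 3240.1 and 3331 CPM in the instars and at 2245, 3254 and 1704 CPM in adults, so that the ranges of larvae and adults overlapped. In pupae it was highest at P1 (34.7, 53.2 and 60.7 CPM) and at 0 counts in all 3 late pupal libraries. Trypsin genes of 1 family differed in the pupal stage with the highest mean, which was P1 for betaTry, iotaTry, thetaTry and zetaTry and late pupae for kappaTry and lambdaTry. For zetaTry this rests on few counts, 2, 3 and 6 at P1 beside 2, 4 and 0 at P2.

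The breakdown enzymes act downstream of digestion. Hpd and hgo catalyse consecutive steps of tyrosine breakdown. Hpd (score 6.34) fell across the instar libraries, at 415, 236 and 31.0 CPM, and was at 424, 339.6 and 359 CPM in adults and at 0.117 to 1.09 CPM in pupae. hgo was likewise lowest in the 3rd instar among larvae (44.0, 26.2 and 12.7 CPM), was at 122, 83.7 and 84.2 CPM in adults, and was at 0 counts in 11 of the 21 pupal libraries. Uro, the urate oxidase of the Malpighian tubules, was at 13.3, 337 and 200.1 CPM in the instars and at 228, 157 and 159 CPM in adults. It did not exceed 0.506 CPM in any pupal library. Sodh1, a sorbitol dehydrogenase, was at 111, 583 and 305 CPM in the instars and at 931, 774 and 566 CPM in adults, and was the member of this group with the highest pupal library (6.59 CPM, in late pupae). Miox, which opens the ring of inositol, and the hexokinase Hex-C complete the group.

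The other named members were more varied, and several kept appreciable RNA in pupae. Acbp5, an acyl-CoA binding protein, was at 434, 1242 and 4429 CPM in the instars, at 272, 499.7 and 221 CPM in adults and at 0.127 to 4.52 CPM in pupae. The alkaline phosphatases Alp9 and Alp10 were at 180.5 to 479 CPM in larvae, 86.4 to 124 CPM in adults and 0 to 2.40 CPM in pupae. The cytochromes P450 Cyp4p1, Cyp4p3, Cyp6a23 and Cyp6w1 and the glutathione S-transferase GstE10 belong to families that act on foreign compounds and lipids, and the pupal medians of these detoxification enzymes lay between 0.212 and 7.30 CPM. Nplp2, a neuropeptide-like precursor with the third highest score (6.95), was at 2130.3, 2991 and 367 CPM in the instars and at 1678, 2796 and 1798 CPM in adults. Its pupal libraries never reached 0 and ranged from 1.47 to 18.4 CPM.

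Products not tied to the gut were also present. Mf (myofilin, a protein of muscle thick filaments) was at 1457, 1078 and 174 CPM in the instars, 2359, 2801 and 2289 CPM in adults and 6.56 to 76.6 CPM in pupae. The 5 muscle markers summed to 4960 to 18350 CPM in larvae, 2255 to 3665 CPM in adults and 256 to 6569 CPM (median 434) in pupae, and their part in the levels of Mf was not tested. Hml (hemolectin, a blood cell protein) was at 25.1, 55.2 and 61.3 CPM in the instars, 138, 54.0 and 130.3 CPM in adults and 0.405 to 13.0 CPM in pupae. The 4 haemocyte markers, Hml among them, summed to 52.8 to 77.0 CPM in larvae, 98.3 to 196 CPM in adults and 29.4 to 125 CPM in pupae. Most of the pupal sum came from srp, with a pupal median of 82.4 CPM (25.0 to 106). It was at 3.28 to 21.2 CPM in larvae and 38.6 to 58.4 CPM in adults. Hml was the only one of the 4 with all pupal libraries below all feeding libraries. The part of blood cells in the levels of Hml was not tested. IM33, an immune-induced peptide, had the lowest ratio of adult to mean pupal CPM of all members, 17.1-fold, and ranged from 12.6 to 77.4 CPM in pupae. The ratio of larval to mean pupal CPM was lowest for Cyp6a23, at 11.2-fold.

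**Figure D2:**
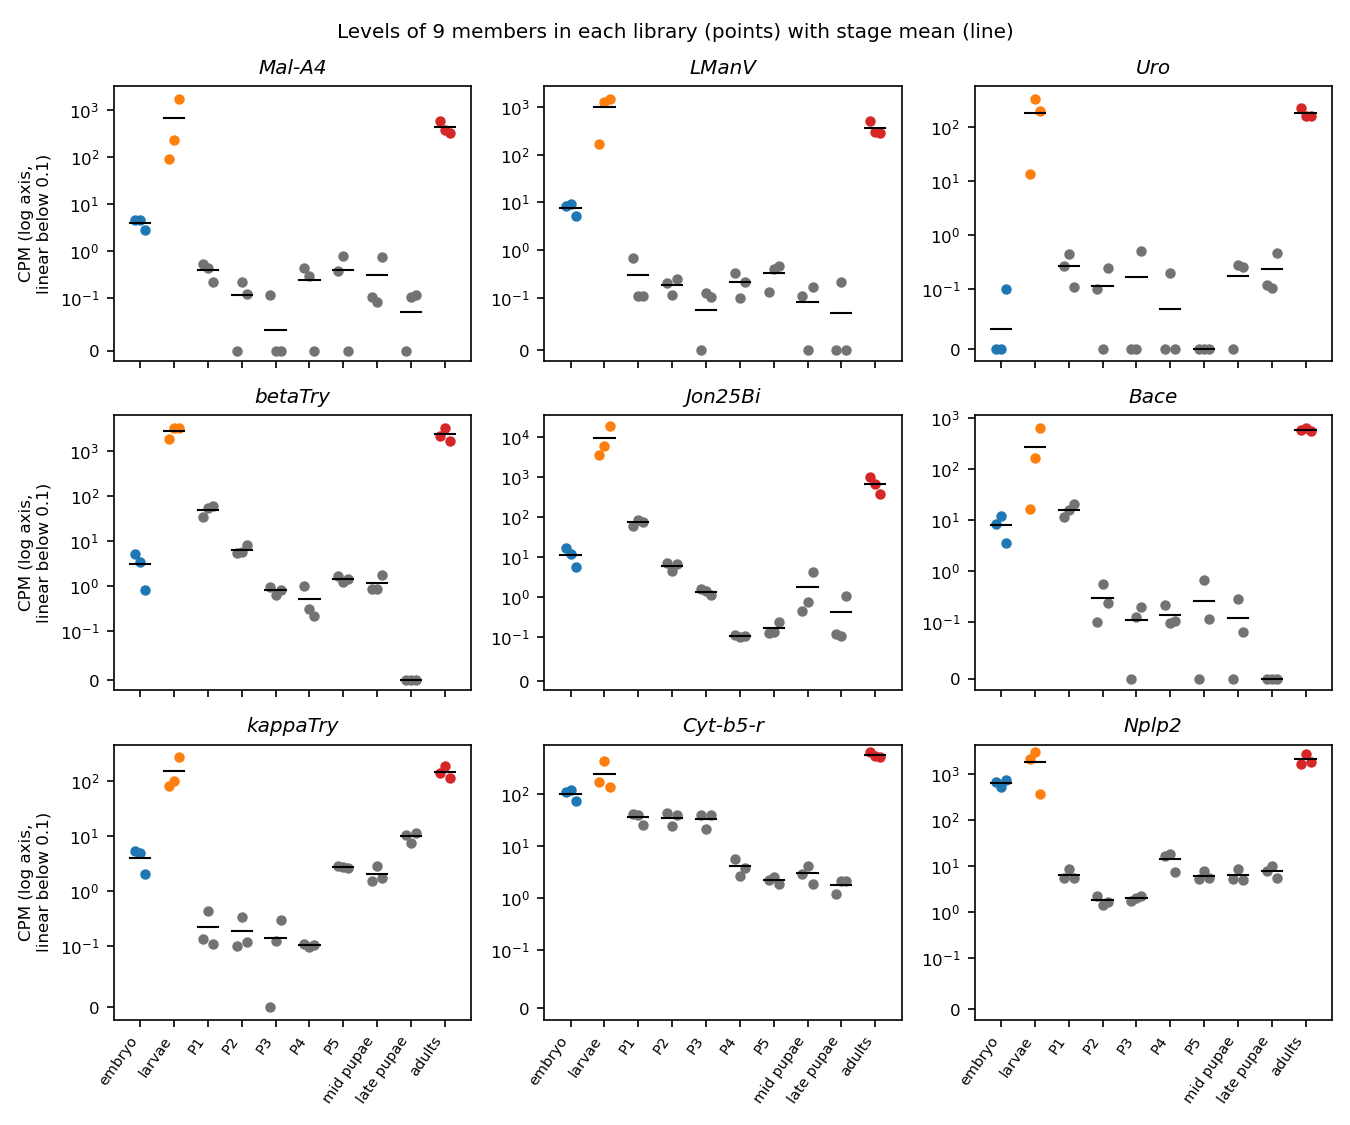
CPM of 9 members in each library (points) with the stage mean (line), on a log axis that is linear below 0.1 CPM. Each stage has 3 points, and the larval points are from left to right the 1st, 2nd and 3rd instar. All pupal points lie below the larval and adult points except in Bace, where the 1st instar overlaps P1.

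Across the set, CPM was a median of 169-fold higher in larvae than in pupae (11.2 to 20523) and a median of 197-fold higher in adults (17.1 to 6233). The largest ratios were those of CG15533 in larvae and Mal-A1 in adults. CG15533 was at 335, 536 and 545 CPM in the instars and at 0 counts in 18 of the 21 pupal libraries. CG18493, the CG-number gene with the highest score (5.83), was at 277, 287 and 153 CPM in the instars, at 237, 274 and 179 CPM in adults and at 0 to 1.85 CPM in pupae. Such large ratios rest on a few pupal counts and are imprecise.

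The embryo was not used by the rule, and its values give the levels of these genes at 10 h, before feeding began. Embryos held 0.149% to 0.190% of their counts in the members, more than any pupal library and less than any feeding library. The embryonic mean CPM was above the mean pupal CPM for 82 members, against 53.4% of all varying genes. All 3 embryo libraries lay above all 21 pupal libraries for 54 members on CPM, against 25.2% of all varying genes, and for 47 on the deposited scale, against 15.9%. Since the pupal values used by the rule were low by choice, this excess is a description only. In 95 members all embryo libraries were below all feeding libraries, against 10% of all varying genes, which again follows in part from high feeding-stage values having been chosen.

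The members with the highest embryonic level were Nplp2, Mf, Cyt-b5-r and CG31233. Nplp2 was at 687, 519.95 and 748 CPM in embryos, above every pupal library and within the range of its larvae. Mf was at 149, 177 and 87.7 CPM in embryos, and Cyt-b5-r, a protein related to cytochrome b5, at 109.9, 119.6 and 71.4 CPM. At the other end, Uro and CG31089 had no count in 2 of the embryo libraries and 0.101 CPM in the third. The embryonic mean was under 1 CPM for 15 members and at least 10 CPM for 31, and the shares of all genes at these levels were not computed.

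Among the larvae the instars could be set side by side but not tested, since each had 1 library. On CPM, 62 members were higher in the 3rd than in the 1st instar, against 20.1% of all varying genes. The difference was at least 2-fold upward in 45 members (13.7% of all genes) and at least 2-fold downward in 17 (57.4% of all genes). On the deposited scale, whose size factors raise the 3rd instar, 94 members were higher in the 3rd instar, against 49% of all genes. All 9 maltases, amylases and alpha-mannosidases were at least 2-fold higher in the 3rd instar, and so were 9 of the 13 peptidases. The largest ratios were those of Bace (38.8-fold, from 16.8 to 653 CPM), Mal-A4 (19.6-fold), CG6283 (16.2-fold) and Uro (15.1-fold).

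The opposite course was taken by Hpd, Mf and Nplp2, whose 3rd instar library was at 0.0747, 0.120 and 0.172 of the 1st. None of the 5 detoxification enzymes was at least 2-fold higher in the 3rd instar. The 2nd instar library, which the methods describe as of suboptimal quality, lay between the other instars in 59 members, 43 of them rising stepwise and 16 falling.

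**Figure D3:**
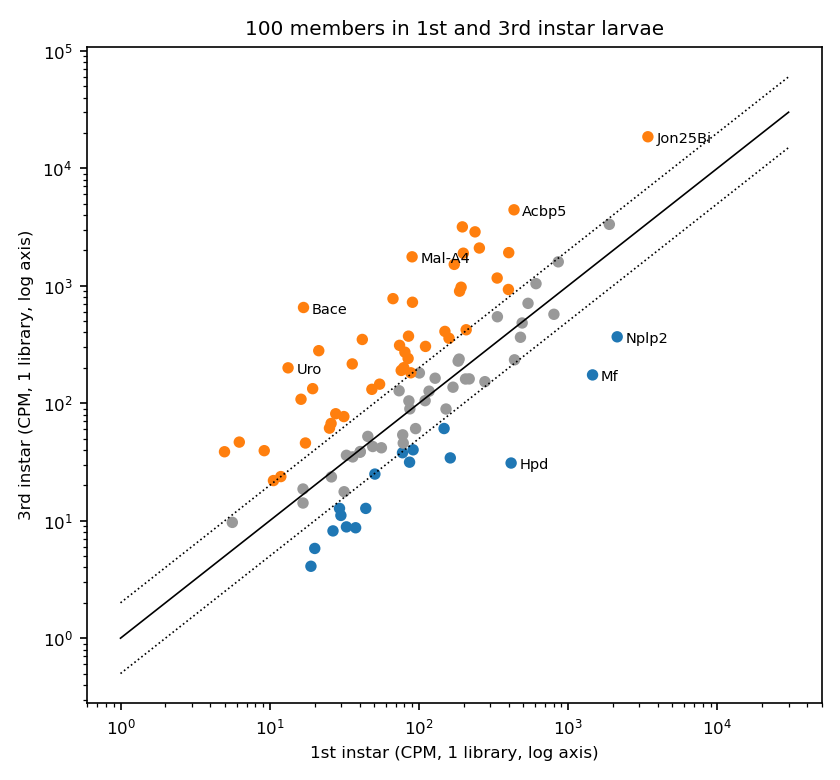
CPM of the 100 members in the 1st instar library (horizontal, log axis) and the 3rd instar library (vertical, log axis). The solid line marks equal CPM and the dotted lines a 2-fold difference. Orange points (45) are at least 2-fold higher in the 3rd instar and blue points (17) at least 2-fold lower.

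The rule required high values in both larvae and adults but did not set which was higher. This order was compared with limma on the deposited values (n = 3 per group, the larvae being 1 library per instar). A difference was called at a Benjamini-Hochberg adjusted p under 0.05. Larval and adult means had entered the score, so that this contrast uses values that also chose the genes. The adjusted p-values of the members are given with that limit. Of the 100 members, 64 differed, 45 being higher in larvae and 19 higher in adults. Among all 14048 varying genes 65.4% differed, 27.7% being higher and 37.7% lower in larvae. The share of members that differed was near this value. As all genes were not chosen by their larval and adult values, their shares are given as a description only. The split depended on the scale. On log2(CPM + 1), where the median of all genes was -0.75 instead of -0.14, 67 members differed (64.2% of all genes, 13.5% higher and 50.7% lower), 25 higher in larvae and 42 higher in adults. A member is therefore called higher in one stage here only where both scales gave the same call, which held for 25 members in larvae and 19 in adults.

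Higher in larvae on both scales were CG31086, Pebp1, Jon25Bi and zetaTry, which showed the largest differences. CG31086 was at 609, 575 and 1042 CPM in larvae and at 41.4, 56.9 and 21.4 CPM in adults. It differed by 5.03 ± 0.47 (SE) on the deposited log2 scale (limma, adjusted p = 7.73e-10). Pebp1, a phosphatidylethanolamine-binding protein, was at 858, 1585 and 1598 CPM in larvae and at 73.6, 105 and 52.2 CPM in adults, with a log2 difference of 4.96 ± 0.44 (adjusted p = 3.26e-10). The libraries of larvae and adults did not overlap in either gene. Jon25Bi differed by 4.41 ± 0.63 (adjusted p = 1.16e-06), and its lowest instar was above its highest adult library. For zetaTry, at 149, 179.9 and 408 CPM in larvae and 32.5, 58.1 and 30.8 CPM in adults, the log2 difference was 3.30 ± 0.50 (adjusted p = 2.46e-06). Leaving out the 3rd instar lowered the log2 difference to 4.19 for CG31086, 4.24 for Pebp1, 3.15 for Jon25Bi and 2.30 for zetaTry, and leaving out the 1st raised it to 5.57, 5.68, 5.37 and 4.01, without loss of a call. Acbp5, Acbp3, Alp9, Alp10, thetaTry and LManVI were also higher in larvae on both scales.

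Higher in adults on both scales were lcs, CG4363, Mal-A1 and CG15293 with the largest differences. lcs was at 1868, 2084 and 1509 CPM in adults and at 86.5, 209.9 and 31.5 CPM in larvae, a log2 difference of -3.52 ± 0.32 (larvae minus adults, adjusted p = 5.9e-10). CG4363 was at 979.6, 1539 and 795 CPM in adults and at 49.0, 56.9 and 42.8 CPM in larvae (log2 difference -3.49 ± 0.33, adjusted p = 8.21e-10). For both genes adults and larvae were far apart. Mal-A1, described above, differed by -3.35 ± 0.50 (adjusted p = 1.94e-06). CG15293 differed by -2.54 ± 0.53 (adjusted p = 0.000184) with adults at 401, 394 and 333 CPM and instars at 9.19, 85.3 and 39.5 CPM. Without the 1st instar its difference was -1.35 (adjusted p = 1.83e-05) and without the 3rd -3.20. For Mal-A1 these values were -2.53 and -4.26, for lcs -3.13 and -3.39 and for CG4363 -3.07 and -3.94, and all calls remained.

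By group, the carbohydrate enzymes split within the group. Amy-p (-2.49 ± 0.56, adjusted p = 0.000449), Amy-d (-2.05 ± 0.58, adjusted p = 0.00343) and Mal-A1 were higher in adults on both scales, and LManVI was higher in larvae. Of the 6 breakdown enzymes, 3 (hgo, Miox and Hex-C) were higher in adults on both scales and none in larvae. Among the 13 peptidases, 3 (Jon25Bi, thetaTry and zetaTry) were higher in larvae and 1 (Nepl15) in adults. Mal-A4 and Uro, with some of the highest scores, differed on neither scale (adjusted p = 0.533 and 0.944 on the deposited scale). The split also depended on the instars. Without the 3rd instar, 65 members differed on the deposited scale with 32 higher in larvae and 33 higher in adults, and without the 1st instar 73 differed with 58 and 15.

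**Figure D4:**
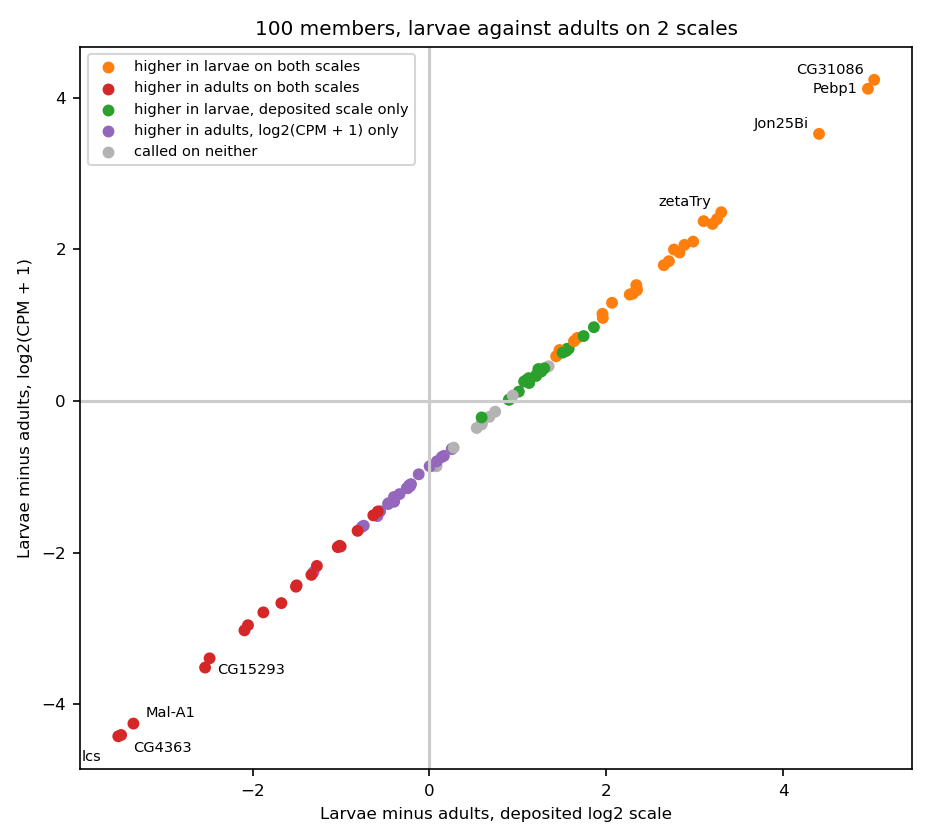
Difference between larvae and adults for the 100 members on the deposited log2 scale (horizontal) and on log2(CPM + 1) (vertical), with positive values higher in larvae. Colours give the limma calls on both scales, with 25 members higher in larvae on both, 19 higher in adults on both, 20 higher in larvae on the deposited scale alone, 23 higher in adults on log2(CPM + 1) alone and 13 called on neither. The points lie on a line below the diagonal through 0.

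The rule used the highest pupal stage mean and so held every pupal stage of a member low, without setting which stage was highest. The course from stage to stage was compared in the same limma fit. These contrasts therefore use values that also entered the choice of genes. All genes were not held low in this way, so that their shares are given beside those of the members as a description only. The low pupal counts limit what could be detected. The highest pupal mean was at P1 in 47 members, at P4 in 14, in late pupae in 10 and in the other stages in 5 to 9 each. The same shares over all genes were not computed, so that these numbers cannot be called particular to the members. The members took 0.0531% to 0.0614% of the counts at P1 and 0.0132% to 0.0290% at all later pupal stages. Between late pupae and P1, 30 members differed, 26 being lower and 4 higher in late pupae. Among all genes 47.8% differed, 20.4% being lower and 27.4% higher. The difference between these shares was not tested.

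The largest decreases were those of betaTry, Jon25Bi, Jon99Ci and CG6283. betaTry fell by 4.79 ± 0.43 on the deposited log2 scale (limma, adjusted p = 1.36e-09), from a mean of 49.5 CPM at P1 to 0 counts in all late pupal libraries, which makes it at least 146-fold lower against a limit of 3 counts per library. Jon99Ci fell by 4.43 ± 0.34 (adjusted p = 7.02e-11), from 32.9, 41.3 and 36.9 CPM to 0 counts, at least 109-fold lower. In both genes every P1 library lay above every library of the later pupal stages, while the order of those later stages differed. Jon25Bi was at 59.0, 83.1 and 75.1 CPM at P1, at 6.98, 4.30 and 6.65 CPM at P2 and at 0.117, 0.106 and 1.06 CPM in late pupae, and fell by 4.72 ± 0.63 (adjusted p = 1.01e-06). CG6283 went from 34.3, 35.3 and 44.5 CPM at P1 to 0, 0.106 and 0 CPM in late pupae and fell by 4.34 ± 0.74 (adjusted p = 2.95e-05). Bace fell by 3.37 ± 0.87 (adjusted p = 0.00252) and was at least 47.9-fold lower. In all, 6 of the 26 members that fell were at 0 counts in all late pupal libraries.

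At P2 the members already took only 0.0203% to 0.0218% of the counts. Between P2 and P1, 10 members differed and all 10 were lower at P2, against 5.54% of all genes that differed, 2.47% being higher and 3.07% lower. They were Jon25Bi, CG6283, betaTry, CG34026, Mf, thetaTry, Jon99Ci, CG17752, CG10513 and CG18493. Jon25Bi fell by 3.06 ± 0.63 between these stages (adjusted p = 0.00218) and betaTry by 2.46 ± 0.43 (adjusted p = 0.000368). With the pupal libraries fitted alone, so that the spread between instars did not enter, 38 members differed between P2 and P1, 37 of them lower and 1 higher (10.7% of all genes differed, 6.19% being lower and 4.48% higher). The direction was therefore the same, while the number depended strongly on the fit. Leaving out 1 library of P1 or P2 gave 6 to 8 members.

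Between late pupae and P1 the members that rose were CG3734, kappaTry, CG15293 and lambdaTry. CG3734 was at 17.3, 15.9 and 15.5 CPM in late pupae, at 0 counts in all mid pupal libraries and at 0.544, 0.654 and 0.984 CPM at P1 (log2 difference 2.60 ± 0.30, adjusted p = 1.14e-07). kappaTry was at 10.5, 7.63 and 11.5 CPM in late pupae and at 0.136, 0.436 and 0.109 CPM at P1 (2.42 ± 0.51, adjusted p = 0.000355). It was already at 2.83, 2.79 and 2.59 CPM at P5. lambdaTry reached 0.816, 1.38 and 1.06 CPM in late pupae from 0, 0 and 0.109 CPM at P1 (0.99 ± 0.25, adjusted p = 0.00247). CG15293 was higher by 1.496 ± 0.53 (adjusted p = 0.023), a call that was lost in 4 of the fits that left out 1 replicate (adjusted p = 0.0557 to 0.0699). All 4 genes stayed far below their adult libraries.

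**Figure D5:**
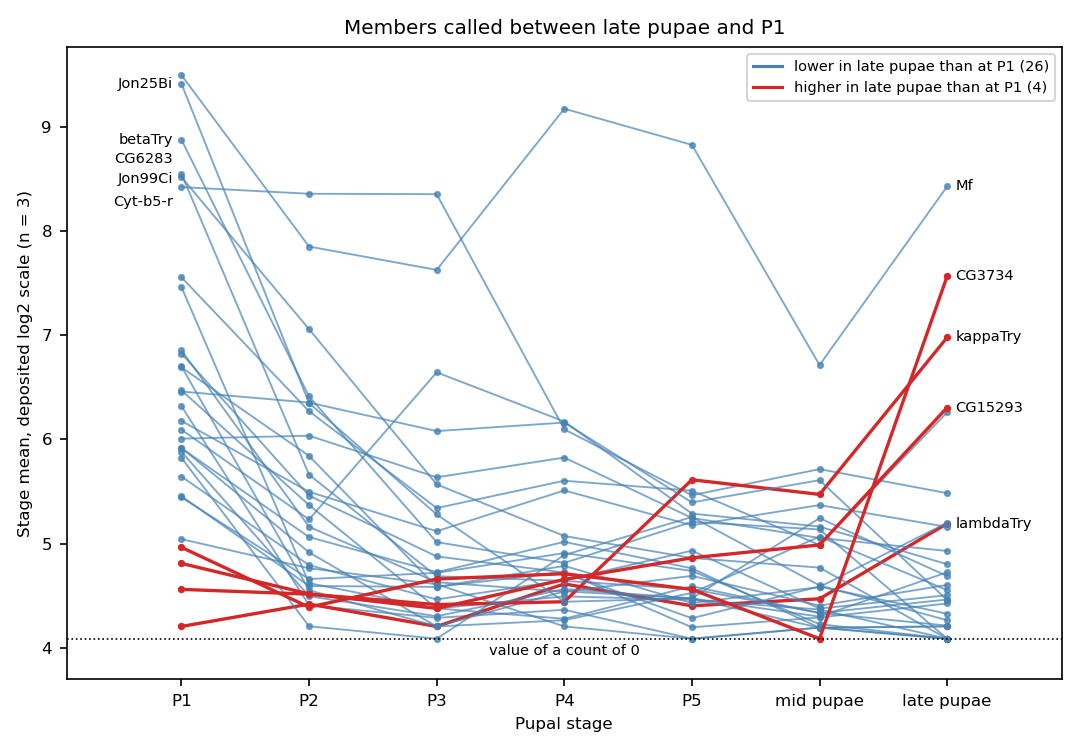
Stage means (n = 3) on the deposited log2 scale across the 7 pupal stages for the 30 members that differed between late pupae and P1. Blue lines (26) are lower and red lines (4) higher in late pupae, and the dotted line is the value of a count of 0. Most blue lines drop between P1 and P2, whereas Mf falls, rises at P4 and rises again in late pupae.

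The remaining steps between neighbouring pupal stages involved few members, and leaving out any 1 library of the stages compared lowered most of these counts further, to 2 or 3 for P3 against P2, 1 to 4 for P5 against P4 and 1 for mid pupae against P5. Between P3 and P2, 4 differed (6.28% of all genes), 3 lower (2.36% of all genes) and 1, CG14500, higher at P3 (3.92%). Between P4 and P3, 4 differed (18.8% of all genes, 10.9% higher and 7.97% lower). Cyt-b5-r fell by 2.26 ± 0.35 (adjusted p = 2.81e-05), from 38.5, 21.03 and 39.6 CPM at P3 to 5.5995, 2.67 and 3.82 CPM at P4. Its P1 to P3 libraries (21.03 to 41.9 CPM) all lay above those of the later pupal stages (1.17 to 5.5995 CPM). Nplp2, Mf and IM33 rose at P4. Between P5 and P4, 5 differed (18% of all genes, 7.68% higher and 10.3% lower), with Acbp2, CG9512, Hex-C and Nplp2 lower and Phae2 higher at P5. Phae2 was at 5.67, 10.1 and 7.30 CPM at P5 and at 0.202 to 1.70 CPM in all other pupal libraries.

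Between mid pupae and P5, 3 members differed (10.8% of all genes, 4.04% higher and 6.81% lower), and Mf, Phae2 and lcs were lower in mid pupae. Mf fell by 2.11 ± 0.26, from 59.0, 58.5 and 48.9 CPM to 13.1, 6.56 and 7.69 CPM, and was at 33.7, 24.3 and 40.5 CPM in late pupae. Between late and mid pupae, 6 members differed and all rose (29.8% of all genes differed, 17.9% being higher and 11.9% lower). They were CG3734, CG17633, Mf, CG10472 and the trypsins kappaTry and lambdaTry. Leaving out 1 library gave 3 to 5. CG17633 was at 0.108, 0.844 and 0.334 CPM in mid pupae and at 14.9, 28.0 and 17.6 CPM in late pupae. 

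The fit of the pupal libraries alone gave more calls at each of these steps, for the members and for all genes. It called 13 members between P3 and P2, 12 of them lower (10.9% of all genes, 6.2% higher and 4.69% lower), and 23 between P4 and P3, 18 of them higher (29.3% of all genes, 16.6% higher). Between P5 and P4 it called 20, with 15 lower (27.3% of all genes), and between mid pupae and P5 17, with 6 higher and 11 lower (22.3% of all genes, 10.4% higher and 11.9% lower). Between late and mid pupae it called 23, with 14 higher (42% of all genes), and between late pupae and P1 43, with 38 lower (58.9% of all genes, 25.3% lower). The differences between these shares and those of all genes were not tested.

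Some members are neighbours in the genome. All 100 are protein coding. Coordinates are those of the BDGP6.54 annotation, a later release than the transcriptome used for the deposited counts. Allowing at most 1 other gene between them, 38 members formed 15 runs, and 31 lay directly next to another member. The same counts for other genes were not computed, so that clustering cannot be called particular to the members. The 4 alpha-mannosidases LManIII, LManIV, LManV and LManVI lie side by side on the same strand (2L:8765273-8781252) with no other gene between them. Mal-A1, Mal-A3 and Mal-A4 (2R:8449664-8460884) are interrupted by Mal-A2 alone. That gene ranked 112 by score, with larvae at 68.1, 138 and 243 CPM, adults at 321, 274 and 237 CPM, and pupae at up to 40.8 CPM.

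A run of trypsins, lambdaTry, kappaTry, zetaTry and thetaTry, spans 5.92 kb (2R:11336840-11342760) and encloses etaTry. Within this run the pupal courses differed, since lambdaTry and kappaTry rose in late pupae while zetaTry was at 0 counts in all 3 late pupal libraries and thetaTry at 0, 0.212 and 0 CPM. etaTry, which is not a member, was at 20.4 to 40.001 CPM in adults and reached 9.95 CPM in a pupal library. A further run of 4, CG31265, CG17475, CG31266 and CG31267 (3R:17128212-17135283), is interrupted by CG4053, and CG13492, CG4363 and CG4377 form a run on 2R. Gene pairs next to each other included Acbp2 and Acbp3, Alp9 and Alp10, Cyp4p1 and Cyp4p3, CG15533 and CG15534, and CG3734 and CG18493. Neighbours did not always share their balance between feeding stages, as Mal-A1 was higher in adults on both scales while Mal-A4 differed on neither. The genes of Amy-p and Amy-d are separated by Spn53F alone.

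The members were spread over 2L (24), 2R (24), 3L (15), 3R (30) and X (7), and the X carried 15.6% of all protein-coding genes of the table. Single-exon genes made up 28% of the members and 16.4% of all protein-coding genes. The median coding length was 1172 bases in the members and 1180 bases in all protein-coding genes, and the median gene length 1598 and 2173 bases. Several members overlap another gene in the annotation, mostly on the opposite strand, such as Mal-A1 with Cyp4e1, Hpd with CtIP, and CG6283 and CG6295 with RYa-R. The library kit keeps strand, but the strand setting of the counting is not given in the sources used here, so that reads of such pairs may not be separated.

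The wider families show how the members sit among their relatives. Lists of genes of digestion, detoxification and uptake held 286 tested genes, of which 25 were among the 100 and 261 were not. Of these 261, limma on the deposited values called 179 higher and 39 lower in larvae than in the mean of the pupal stages (71.1% of all genes were called, 31.4% higher and 39.7% lower), and 170 higher and 32 lower in adults (70.8% of all genes, 44.5% higher and 26.3% lower). Both were higher for 137. On log2(CPM + 1) the larval split was 146 higher and 63 lower. As genes with the highest score had been removed from these lists, the counts describe the remainder of each family.

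Of the 22 gut serine proteases outside the 100, all 22 were higher in larvae than in pupae and 17 in adults, with median log2 differences of 7.23 and 3.38 beside -0.10 and 0.20 over all genes. Jon66Ci and Jon65Ai, for instance, were higher in larvae (log2 differences 8.05 and 4.62) and lower in adults (-1.49 and -1.70) than in pupae. For these relatives the adult value kept the score low. Among the 12 other genes of starch and sugar digestion, 8 were higher in larvae and 7 in adults, and 2 were lower in each. Mal-A7 and Mal-B1 were higher by 8.94 and 4.84 in adults but by 1.05 and 1.00 in larvae, so that there the larval value was the limiting one. Of 82 further cytochromes P450, 55 were higher and 10 lower in larvae, and 55 higher and 7 lower in adults. Of 34 glutathione S-transferases, 23 were higher and 4 lower in larvae, and 21 higher and 4 lower in adults. The UDP-glycosyltransferases, 33 genes of which none was among the 100, had 24 higher and 6 lower in larvae and 24 higher and 5 lower in adults.

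In the smaller lists, the 10 alkaline phosphatases had 9 higher and 1 lower in larvae and 7 higher and 1 lower in adults. The 14 lipases and sterol carriers had 9 higher and 4 lower in larvae and 9 higher and 1 lower in adults. Of 11 lysozymes and gut amidases, 8 were higher and 2 lower in larvae, and 5 higher and 1 lower in adults. These lists cover fat digestion, phosphate release and defence in the gut. Of 5 peritrophic matrix genes, whose products line the gut lumen, 3 were higher in larvae and 4 in adults, with 1 lower in adults. The 6 metallothioneins, which bind metals, had 3 higher and 2 lower in larvae and 4 higher and 1 lower in adults. The 16 nutrient transporters had 10 higher and 4 lower in larvae and 10 higher and 3 lower in adults, and the 11 gut identity factors 5 higher and 1 lower in larvae and 7 higher in adults. The 5 cathepsins and related peptidases outside the 100 showed the reverse. None was higher in either feeding stage, and 3 were lower in larvae and 4 in adults, among them CtsL3 by 5.83 and 4.003 on the deposited log2 scale. The member Bace was on the same list.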

How the data were processed

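Poly(A) RNA from pools of whole animals was sequenced, with 3 libraries per stage. The authors used fastp for trimming and kallisto for pseudomapping to a BDGP transcriptome, summed estimates per gene and deposited log2 values from the DESeq2 variance stabilizing transformation, with replicates kept apart. The tool versions are not given in the sources used here. The *D. virilis* table (30 libraries) was not used.

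The transformation was inverted from its value for a count of 0 (4.09), which gave whole counts within 0.01 for all values under 30 counts, and these were divided by library totals to give CPM. The size factors within the deposited values raise the larvae relative to CPM, so that directions between larvae and other stages were compared on both scales. Stage contrasts were fitted to the deposited values of all 30 libraries with limma 3.58.1 in R 4.3.3 (lmFit, eBayes with trend), and p-values were adjusted by Benjamini-Hochberg over 14048 genes, after 79 constant genes had been left out. Tables and plots were made in Python 3.11.15 with pandas 2.3.3 and matplotlib 3.10.9. The fit was tested on simulated data with like replicates in every stage and size factors set by library totals. That test therefore does not cover the spread between instars. The libraries are labelled as biological replicates, but the larval ones are different instars, so that the larval spread includes development.

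The members and the gene lists were chosen with earlier results of these data known. Named genes are the 12 members with the highest score, those next to the threshold, the 4 with the largest change in each direction between larvae and adults and between late pupae and P1, the 4 highest and 2 lowest in embryos, members of the lists and members of genomic runs. Further members were named for the known role of their product after values had been seen. Alternatives were limma-voom on the counts, log2(CPM + 1), log2(CPM + 0.5), a filter on low means, a fit without trend, a replicate term, leaving out each library, and, added after the counts had been seen, the pupal libraries alone. Of 14127 genes, 14117 were found in the annotation.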

Additional observations from a re-analysis of the deposited data

How the results depend on the processing

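The set itself was fairly stable. Scoring on log2(CPM + 1) kept 86 of the 100 genes, scoring without the 2nd instar 95, medians in place of means 94, and leaving out 1 library 89 to 100. The counts between larvae and adults and between late pupae and P1 stayed within 1.5 times under each alternative run, while their direction between larvae and adults depended on the scale as given above.

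The counts between neighbouring pupal stages were small and rose under other models. In the order limma-voom, log2(CPM + 1), log2(CPM + 0.5) and pupal libraries alone, the members called were 20, 25, 30 and 38 for P2 against P1, 7, 8, 10 and 13 for P3 against P2, 8, 8, 10 and 23 for P4 against P3, 10, 10, 12 and 20 for P5 against P4, 9, 7, 10 and 17 for mid pupae against P5, and 18, 17, 17 and 23 for late against mid pupae. The cause of these differences was not tested. Leaving out 1 library gave 54 to 73 members for larvae against adults, 6 to 8 for P2 against P1, 2 to 3 for P3 against P2, 3 to 4 for P4 against P3, 1 to 4 for P5 against P4, 1 for mid pupae against P5, 3 to 5 for late against mid pupae and 26 to 30 for late pupae against P1, and 208 to 220 and 189 to 203 list genes in larvae and adults.

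Replicate numbers did not pair the libraries throughout. The correlations of the deviations of same-numbered libraries ran from -0.61 to 0.34, and in 0 of 8 contrasts were all 3 above 0.1. In late against mid pupae, however, they were 0.11, 0.23 and 0.09, and 6 of 6 libraries correlated best with their own number. For P3 against P2 they were 0.17, 0.24 and 0.03, with 4 of 6. Some pairing in these contrasts is therefore possible, and the main fit had no replicate term. With the replicate number as a block, 63 members were called between larvae and adults, 30 between late pupae and P1 and 9 between P2 and P1.

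A comparison of promoter motifs was not run, since no promoter sequences were used here. Most pupal values rest on 0 to 10 counts, so that differences between pupal stages below a few counts per library were not detectable.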
